A study of Mus musculus with 13 samples.

Results

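The interferon-inducible antiviral genes are a set of 39 genes whose transcription rises when a cell responds to interferon and whose products block viral replication, sense viral nucleic acids or regulate that response. The set was chosen by gene function, and each gene was read by its brightest probe set that carries a single gene symbol. Of the 39 genes, 37 had such a probe set, among 18193 genes measured this way. Isg15 and Ifi44 had none and are named only.

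The arrays compared early progenitors with lymphoid and myeloid potential (EPLMs) of WT mice and of transgenic littermates called BCS, which overexpress OBF-1 (Pou2af1), the coactivator of the octamer-binding factors Oct-1 and Oct-2 in B cells. The transgene is an HA-tagged human OBF1 cDNA under an immunoglobulin heavy chain variable region promoter and the Eμ enhancer. All mice were 7 weeks old and of the strain B6CF1 x C57BL/6, and EPLMs were sorted from their bone marrow as B220+ c-kit+ CD93+ cells that lacked NK1.1, among other criteria. Each genotype had 3 mice with 1 Affymetrix mouse expression array each, and which transgenic line the mice came from is not given in the sources used here. Large preB arrays of the same study were not used, because their intensities did not follow the probe set names.

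Type I interferons bind a receptor made of IFNAR1 and IFNAR2, and the kinases JAK1 and TYK2 then phosphorylate STAT2. With IRF9 it acts in a complex that binds the interferon-stimulated response element (ISRE) in the promoters of antiviral genes. Many cells transcribe these genes at a low level without infection, and plasmacytoid dendritic cells, which express B220 and make large amounts of interferon, depend on several of the same regulators.

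Promoter sequence was available from RefSeq (build GRCm38.p6) for 28 of the 39 genes, as windows from 250 bases before to 50 bases after the transcription start. The ISRE core, GAAA followed by any 2 bases and GAAA again, was searched on both strands and was present in 13 of the 28 genes (46.4%) and in 3.99% of the 27025 genes in the table. The gamma-activated site TTCNNNGAA was found in 8 of the 28 (28.6%) against 9.55% of all genes, and the octamer ATGCAAAT that recruits OBF-1 through Oct factors in 0 of the 28 against 1.97%. A match is a description of the letters and not of binding. Among the 5 genes with a changed signal that are in the table, only Trim30a held an ISRE core and only Samhd1 a gamma-activated site. The following 80-base stretches are shown 5′ to 3′ with the ISRE core in capitals, first for the 5 genes that changed and then for 4 that did not pass the test and hold a core. Trim30a, Sp100 and other genes can have more than 1 window, and the first one is given.
Parp12, chr6:39118350-39118429, minus strand: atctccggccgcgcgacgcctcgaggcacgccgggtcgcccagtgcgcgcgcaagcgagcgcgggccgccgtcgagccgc
Samhd1, chr2:157135097-157135176, minus strand: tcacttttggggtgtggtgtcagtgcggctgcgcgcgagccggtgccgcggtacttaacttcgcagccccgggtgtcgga
Sp100, chr1:85649908-85649987, plus strand: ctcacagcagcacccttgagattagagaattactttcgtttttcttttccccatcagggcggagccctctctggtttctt
Trim25, chr11:88999323-88999402, plus strand: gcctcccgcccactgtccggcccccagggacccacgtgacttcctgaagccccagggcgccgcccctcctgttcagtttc
Trim30a, chr7:104465194-104465273, minus strand: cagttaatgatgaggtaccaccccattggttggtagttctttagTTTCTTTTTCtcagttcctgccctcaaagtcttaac
Oas1a, chr5:120907526-120907605, minus strand: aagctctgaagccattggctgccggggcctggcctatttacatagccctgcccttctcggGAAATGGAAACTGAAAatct
Gbp2, chr3:142620569-142620648, plus strand: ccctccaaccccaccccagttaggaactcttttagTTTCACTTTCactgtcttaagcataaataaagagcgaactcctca
Igtp, chr11:58199476-58199555, plus strand: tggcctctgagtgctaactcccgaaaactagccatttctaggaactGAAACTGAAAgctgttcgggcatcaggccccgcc
Rsad2, chr12:26456528-26456607, minus strand: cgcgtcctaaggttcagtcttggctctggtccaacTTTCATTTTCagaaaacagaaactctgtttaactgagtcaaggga
In Oas1a the capitals cover 2 overlapping matches. The stretches of Parp12, Samhd1, Sp100 and Trim25 hold no ISRE core, and neither do their whole windows.

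Few of the antiviral genes differed between BCS and WT EPLMs. Samhd1, Mx1, Sp100, Trim30a and Trim25 fell and Parp12 rose, while 31 of the 37 genes did not pass the test, among them all 3 Ifit genes, all 5 genes of the OAS family and all 5 interferon-inducible GTPases. The test was limma on log2(intensity + 1), with p-values adjusted by Benjamini-Hochberg over all probe sets and a threshold of 0.05. The 1 gene that rose is 2.70% of the 37, against 3.15% of all 18193 genes, and the 5 that fell are 13.5%, against 4.70%. In either direction 6 of the 37 passed, against 7.85% of all 18193 genes and 5.49% of all 45037 probe sets. All 6 were among the 33 antiviral genes above the array median on every array, a range in which 5.01% of genes rose and 7.45% fell. The balance of 1 higher and 5 lower changed with the mouse left out. It was 2 higher and 1 lower without WT mouse 2, and 2 and 2 without BCS mouse 2. It was 0 and 2 without WT mouse 1 or WT mouse 3, and 0 and 3 without BCS mouse 3. Without BCS mouse 1 it stayed close, at 1 and 4. The median log2 difference of the 37 genes was -0.14, against 0.01 over all genes. In these sorted populations, fewer cells of a type and less RNA per cell cannot be told apart.

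**Figure D1:**
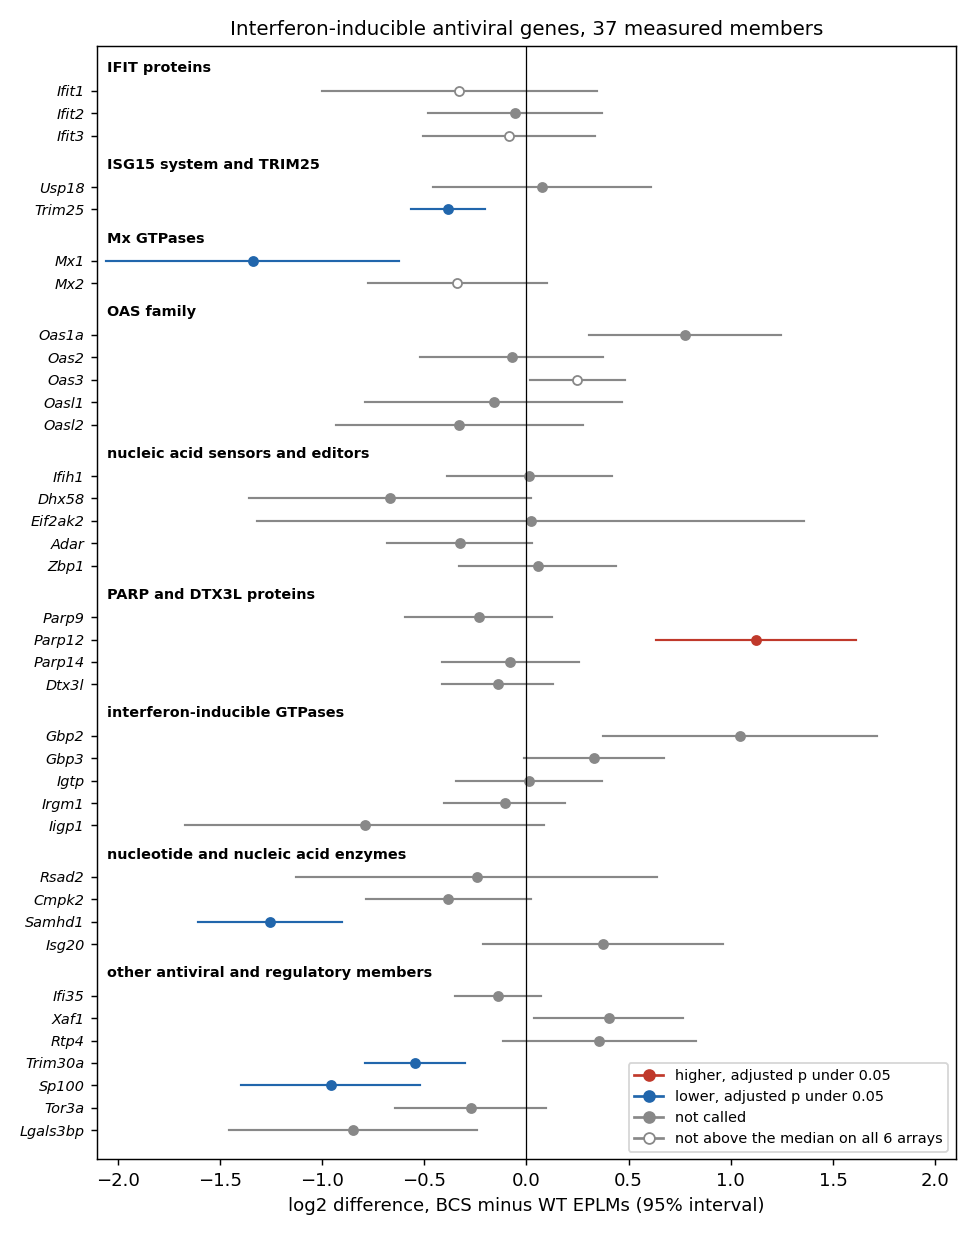
Log2 difference between BCS and WT EPLMs (x axis) for each of the 37 measured antiviral genes (y axis), with the 95% interval from limma. The 6 coloured genes passed the adjusted threshold, with Parp12 at 1.12 and the 5 others between -1.34 and -0.38.

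Samhd1, a phosphohydrolase that lowers the pool of deoxynucleotides available to viruses, had the strongest test result. Its intensity was 1913, 2452 and 2004 in the WT mice and 791, 825 and 1060 in the BCS mice. Every BCS mouse was below every WT mouse. The mean fell from 2123 ± 288 to 892 ± 147 (SD, n = 3), a log2 difference of -1.25 (SE 0.16, limma adjusted p = 0.00203). The gene has 4 further probe sets, all lower in BCS, and 3 of them passed the threshold with log2 differences between -1.57 and -0.93. Samhd1 passed the threshold whichever mouse was left out, with limma adjusted p between 0.00296 and 0.0116.

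Parp12, a mono-ADP-ribosyltransferase that restrains viral translation, was the gene that rose. The WT mice had 237, 372 and 287 and the BCS mice 620, 535 and 796. All BCS values exceeded all WT values, with means of 299 ± 68.0 and 650 ± 133 (SD, n = 3) and a log2 difference of 1.12 (SE 0.22, limma adjusted p = 0.0184). The call was lost without WT mouse 1 (adjusted p = 0.0566), WT mouse 3 (0.0678) or BCS mouse 3 (0.0681). Its relatives did not pass: Parp14 was 2198, 2872 and 2379 in WT and 2820, 2084 and 2172 in BCS (log2 difference -0.08, SE 0.15, limma adjusted p = 0.85). Dtx3l, the ubiquitin ligase that pairs with PARP9, was 2290, 2485 and 2626 in WT and 2548, 1973 and 2221 in BCS (log2 difference -0.14). Both groups overlapped for these genes, and Parp9 differed by -0.23.

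Mx1 encodes a dynamin-like GTPase that blocks influenza virus, and most inbred laboratory strains carry a defective allele. Its intensity was 549, 599 and 631 in WT and 292, 131 and 333 in BCS. BCS mouse 2 was the lowest, and the groups did not overlap. The mean went from 593 ± 41.1 to 252 ± 107 (SD, n = 3), with a log2 difference of -1.34 (SE 0.32, limma adjusted p = 0.0448). The call was lost without WT mouse 1 (adjusted p = 0.093), 2 (0.118) or 3 (0.136), or without BCS mouse 1 (0.0585). Mx2 did not pass (log2 difference -0.34).

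Sp100, a component of PML nuclear bodies that silence viral genomes, was at 732, 923 and 772 in WT and 535, 348 and 381 in BCS. The groups did not overlap, and means of 809 ± 101 and 421 ± 100 (SD, n = 3) gave a log2 difference of -0.96 (SE 0.19, limma adjusted p = 0.0225). A second probe set fell by 1.38 on the log2 scale. The call of the brightest probe set was lost without WT mouse 2 (adjusted p = 0.0842), WT mouse 3 (0.0707), BCS mouse 2 (0.0839) or BCS mouse 3 (0.0816).

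Of the TRIM ubiquitin ligases, Trim30a, which restrains signalling from Toll-like receptors, was at 14913, 13092 and 13028 in WT and 11075, 8159 and 9080 in BCS. Its log2 difference was -0.54 (SE 0.11, limma adjusted p = 0.0214), with no overlap, and a second probe set fell by 0.67. Trim30a belongs to a multigene family, so its probe sets may read related transcripts. Trim25, which modifies the RNA sensor RIG-I and also acts as an ISG15 ligase, was at 15010, 15767 and 13517 in WT and 11680, 10264 and 12058 in BCS (log2 difference -0.38, SE 0.08, limma adjusted p = 0.0266). All BCS mice were below all WT mice for both genes. Another Trim25 probe set also passed at -0.41, while the remaining one, which was dim, differed by 0.39 (adjusted p = 0.621). Trim30a was lost without WT mouse 1 (adjusted p = 0.0713), 2 (0.052) or 3 (0.0551), or BCS mouse 2 (0.0641) or 3 (0.0802), and Trim25 without WT mouse 1 (0.0819), WT mouse 2 (0.0965) or BCS mouse 2 (0.0809).

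**Figure D2:**
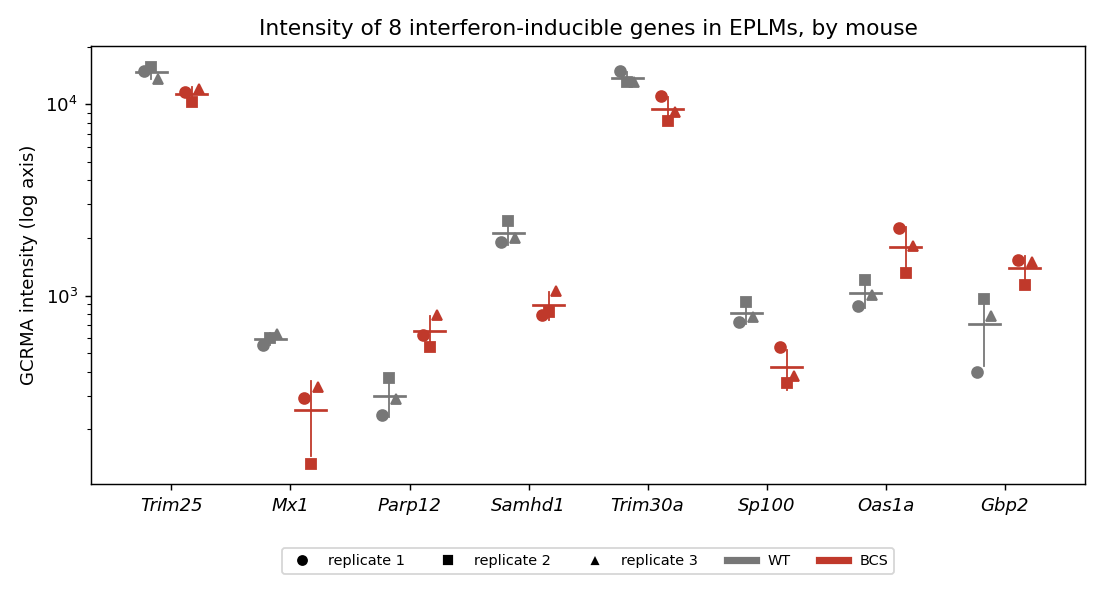
GCRMA intensity (y axis, log scale) of 8 antiviral genes in each EPLM sample, 1 point per mouse with 3 WT and 3 BCS mice. Horizontal lines are means and vertical lines SDs. Shown are the genes that passed the threshold plus Oas1a and Gbp2, picked from the 8 genes that did not pass and whose groups did not overlap. The others of that kind are not drawn: Oas3 and Xaf1, higher in BCS, and Dhx58, Adar, Tor3a and Lgals3bp, lower in BCS. The genotypes separate for all 8 genes drawn, which partly follows from this choice. Samhd1, for example, had WT values from 1913 to 2452 and BCS values from 791 to 1060.

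Among the interferon-inducible GTPases, which attack the vacuoles of intracellular pathogens, Gbp2 was the only antiviral gene with a difference above 2-fold that did not pass. It was at 397, 954 and 783 in WT and at 1536, 1140 and 1497 in BCS. The groups did not overlap, but the spread within WT was wide and the log2 difference of 1.05 (SE 0.30) had a limma adjusted p = 0.0849. Leaving out WT mouse 2 gave an adjusted p of 0.0489 and leaving out any other mouse 0.098 to 0.212, and without WT mouse 1 the log2 difference was 0.67. Gbp3 was at 1917, 1513 and 2143 in WT and 2606, 2320 and 2052 in BCS (log2 difference 0.33), and Igtp at 1693, 2203 and 2058 against 2390, 1661 and 1982 (log2 difference 0.01). Both overlapped. Irgm1 differed by -0.11 and Iigp1 by -0.79, neither past the threshold.

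The OAS proteins make the oligoadenylates that activate RNase L, and none of the 5 genes passed. Oas1a, described because its groups did not overlap and therefore chosen after its values were seen, was at 877, 1208 and 1002 in WT and 2266, 1305 and 1807 in BCS. Its log2 difference of 0.78 (SE 0.21) had a limma adjusted p = 0.0704, which became 0.0282 without BCS mouse 2 and was 0.082 to 0.18 without any other mouse. Oas2, Oasl1 and Oasl2 differed by -0.07, -0.16 and -0.33. Oas3 was at or below the array median on all 6 arrays, so its difference of 0.25 carries little signal.

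The IFIT proteins, which bind viral RNA and are among the most strongly interferon-induced products, showed log2 differences of -0.33 (Ifit1), -0.06 (Ifit2) and -0.09 (Ifit3), none past the threshold. Ifit1 was above the array median on 3 and Ifit3 on 4 of the 6 arrays, so these values lie near background. Ifit2 was at 1758, 2622 and 1723 in WT and 2200, 1580 and 2033 in BCS, overlapping throughout. Usp18, the protease that removes ISG15, differed by 0.08. The sensors and editors Ifih1, Dhx58, Eif2ak2, Adar and Zbp1 lay between -0.67 and 0.06 without a call. Dhx58 (-0.67) and Adar (-0.32) were lower in BCS without overlap, while Ifih1, Eif2ak2 and Zbp1 overlapped. Eif2ak2 varied widely between mice, with a log2 difference of 0.02 (SE 0.59) and a 95% interval from -1.32 to 1.36. Its other probe sets were at -0.77 and -0.06, neither called.

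Of the remaining genes, Ifi35 was bright and near level at 10477, 11229 and 12493 in WT and 10574, 9168 and 11326 in BCS (log2 difference -0.14, SE 0.09, limma adjusted p = 0.496). Rsad2, or viperin, which makes a chain-terminating nucleotide, ranged widely within WT at 1005, 1717 and 461 and was at 809, 813 and 729 in BCS. Lgals3bp had a log2 difference of -0.85 with no overlap and an adjusted p = 0.121 from limma. Over all 31 genes that did not pass, 12 had a higher and 19 a lower BCS mean, and the 95% interval of 23 lay within a 2-fold change in either direction. Groups did not overlap for 14 of the 37 genes (37.8%), 5 higher and 9 lower in BCS, against 28.7% of all genes. With 3 mice against 3, an exact two-sided permutation test of a single gene cannot go below 0.1.

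Within a genotype, the same mouse was often the highest or the lowest across many of the antiviral genes. Their mean log2 intensity was 8.86, 9.17 and 8.96 in the WT mice and 9.05, 8.64 and 8.88 in the BCS mice. BCS mouse 2 was the lowest BCS mouse for 27 of the 37 genes (73.0%), against 38.7% of the 9892 genes above the median on all arrays. WT mouse 2 was the highest WT mouse for 23 (62.2%), against 33.5%, and WT mouse 1 the lowest for 23, against 41.1%. Genes are not independent of each other, and these shares describe 6 mice.

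**Figure D3:**
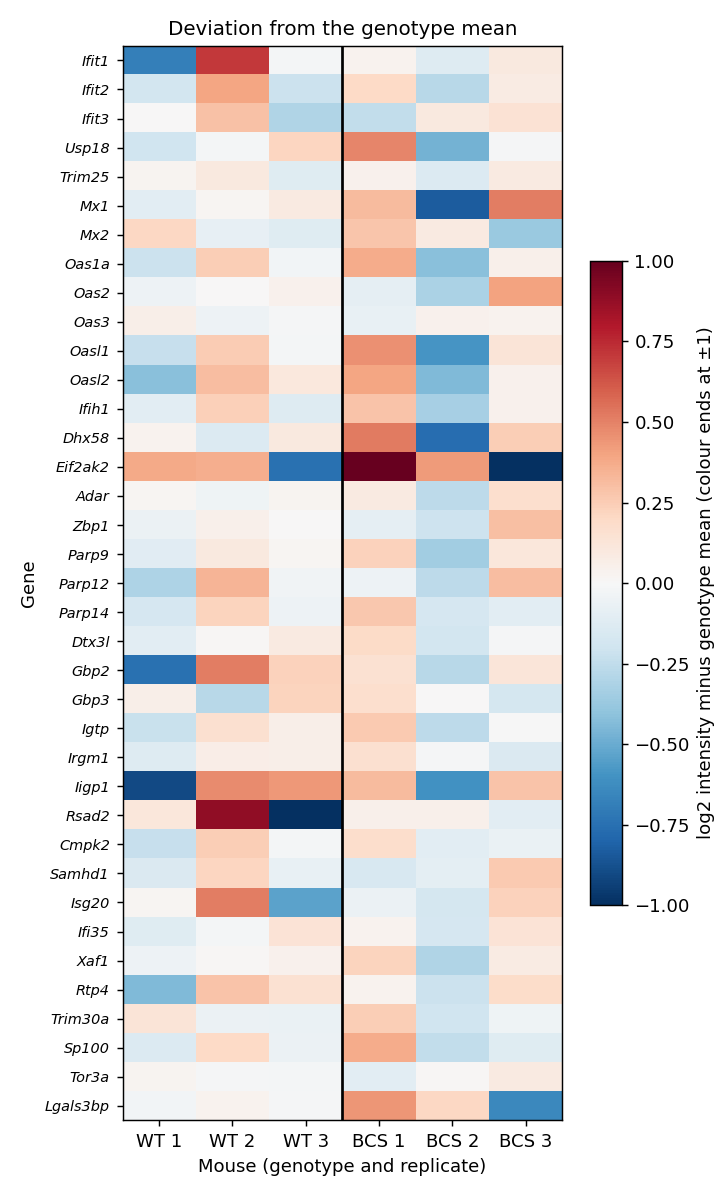
Deviation of each antiviral gene (rows) from its genotype mean in each of the 6 mice (columns), on the log2 scale with the colour ending at 1 in either direction. BCS mouse 2 lies below its genotype mean for most genes, being the lowest BCS mouse for 27 of 37.

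Further genes of the interferon system were examined from a list of 85, of which 77 were measured. Of these 7 rose (9.09%, against 3.15% of all genes), 9 fell (11.7%, against 4.70%) and 61 did not pass, with a median log2 difference of -0.06. Of 37 genes for interferons, their receptors and signalling, the sensors and adaptors upstream of them and negative regulators, 1 rose and 7 fell. Of 40 other interferon-inducible genes 6 rose and 2 fell. The 9 lower genes became 5 without WT mouse 2, without WT mouse 3 or without BCS mouse 3. The 7 lower among the 37 became 4 when any 1 of the same 3 mice was left out. Without BCS mouse 1 the lower counts grew to 12 and 9. None of the 6 ligand genes passed, and 4 of them were at or below the array median on all arrays.

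Both subunits of the type I receptor fell. Ifnar1 was at 3200, 3329 and 3519 in WT and 2124, 1737 and 1952 in BCS (log2 difference -0.79, SE 0.11, limma adjusted p = 0.00323). Ifnar2 was at 4260, 3718 and 4148 in WT and 2546, 2352 and 2887 in BCS (log2 difference -0.64, SE 0.11, limma adjusted p = 0.00913). For each, all BCS mice were below all WT mice, and both calls held whichever mouse was left out. Jak2, a kinase of the interferon gamma and cytokine receptors, fell by 0.64 (limma adjusted p = 0.0188), a call lost without WT mouse 2 (0.0712), WT mouse 3 (0.0663) or BCS mouse 3 (0.0625). Jak1 and Ifngr1 differed by 0.03 and 0.05 and did not pass.

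All 8 measured STAT and IRF factors had a lower mean in BCS, and 3 passed. Irf8, which directs dendritic cell and B cell development, was at 39993, 38751 and 39670 in WT and 29268, 23426 and 25736 in BCS (log2 difference -0.60, SE 0.07, limma adjusted p = 0.00156). Irf7, the amplifier of interferon gene transcription, was at 653, 999 and 899 in WT and 522, 301 and 410 in BCS (log2 difference -1.06, limma adjusted p = 0.0343). Stat2 was at 127, 94.0 and 99.8 in WT and 69.5, 46.4 and 40.1 in BCS (log2 difference -1.05, limma adjusted p = 0.0374). All 3 separated the genotypes. Irf8 held whichever mouse was left out, Irf7 was lost without WT mouse 2 (adjusted p = 0.117), WT mouse 3 (0.119), BCS mouse 2 (0.104) or BCS mouse 3 (0.0945), and Stat2 without any mouse but BCS mouse 1 (0.0678 to 0.133). Irf9 differed by -0.35 (adjusted p = 0.186).

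Of the sensors and adaptors, Cgas, the cytosolic DNA sensor, fell from 2142, 2202 and 2605 to 1402, 1280 and 1343 (log2 difference -0.78, limma adjusted p = 0.0053). Tlr3, the endosomal receptor for double-stranded RNA, rose from 15.3, 21.6 and 13.6 to 35.4, 45.4 and 58.8 (log2 difference 1.41, limma adjusted p = 0.00837), with the WT values near the array median. The groups did not overlap for either gene. Among the 40 other interferon-inducible genes, the membrane proteins Ifitm1 and Ifitm2, which block viral entry, rose by 1.64 and 1.61, and Gbp7, Ifi27 and Nmi by 0.96, 0.95 and 0.86. Bst2, the tetherin that holds virions on the cell surface, fell by 2.32 (limma adjusted p = 0.000618). Ifitm1 was lost without WT mouse 2 (adjusted p = 0.0632), BCS mouse 1 (0.0839) or BCS mouse 2 (0.106), and Ifi27 without WT mouse 1 (0.0564), WT mouse 3 (0.0665) or BCS mouse 3 (0.0649). Ifitm3 and Ly6e, the remaining higher and lower gene, each lost the call in 5 of the 6 fits that left out 1 mouse. Ly6e kept it only without BCS mouse 1 and Ifitm3 only without WT mouse 2. The lower count was then 1, Bst2, in all of these fits but that without BCS mouse 1, where it was 3.

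**Figure D4:**
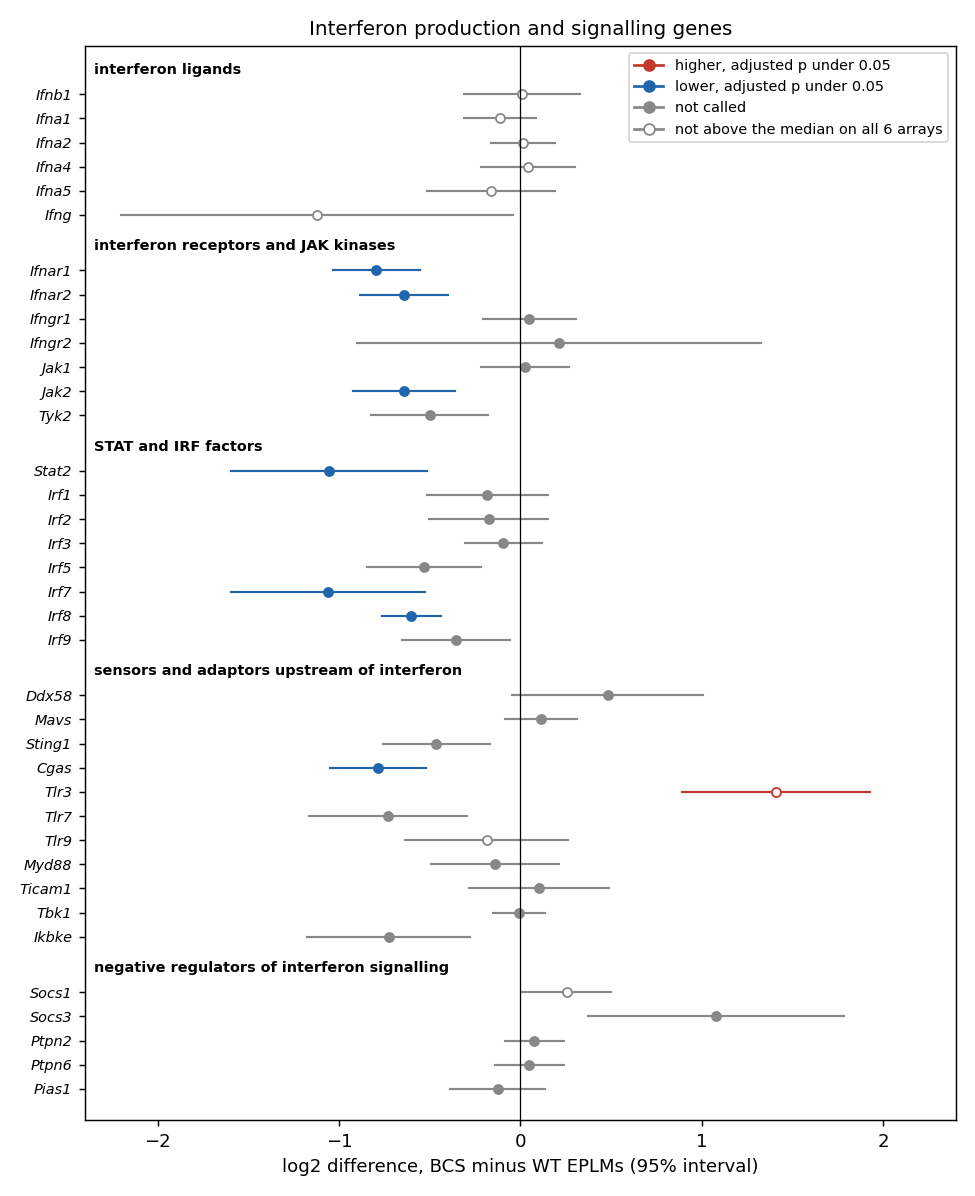
Log2 difference between BCS and WT EPLMs (x axis) with its 95% interval from limma for genes of interferon production and signalling (y axis). Ifnar1 at -0.79, Ifnar2 at -0.64 and Irf8 at -0.60 lie below 0 with narrow intervals, and Tlr3 at 1.41 lies above.

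Markers of cell types were read in the same way. For comparison with the counts of each list, 3.15% of all genes rose and 4.70% fell. By limma, 14 of the 19 plasmacytoid dendritic cell markers that could be read were lower in BCS and 0 were higher, with a median log2 difference of -0.95. Of the 5 not called, Spib (0.25) and Dntt (0.20) had a higher BCS mean without overlap, and Tlr7, Tlr9 and Ly6d a lower mean. Lag3, counted as lower, was below the array median on all 3 BCS arrays. Klk1 was at 2218, 7463 and 4009 in WT and below the array median on all 3 BCS arrays, so the size of its fall is not given. The next largest differences were those of Pacsin1 (-4.44), Ccr9 (-3.29), Havcr1 (-2.71), Bst2 (-2.32) and Cox6a2 (-1.83). Their summed intensity was 134270 to 150410 in WT and 77203 to 98215 in BCS, and none was at or below the array median on all 6 arrays. The list shares 5 genes with the interferon lists (Bst2, Irf7, Irf8, Tlr7 and Tlr9) and none with the 39 antiviral genes, and it includes genes that lymphoid progenitors also express, such as Dntt and Ly6d. Of 12 NK cell markers 2 fell (Klrd1 and Klrk1), with sums of 8630 to 18278 in WT and 1530 to 5244 in BCS and Klra1 at or below the median. Klrd1 was the brightest of the 12 in every WT mouse (6901 to 8110, against 1087 to 2430 in BCS). Klrk1 was below the array median on all 3 BCS arrays. The groups of the other 10 overlapped, although 11 of the 12 had a lower BCS mean. Of 17 myeloid markers 2 fell (Csf1r and Cebpb), with sums of 30414 to 112780 and 11273 to 76337 and Cd14 and Cebpa at or below the median. The part of these cells in the antiviral gene differences was not tested.

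Of 8 B lineage markers, 6 rose (Cd79b, Vpreb1, Igll1, Ebf1, Pax5 and Rag1), with sums of 38417 to 63819 in WT and 92993 to 98866 in BCS. Of 8 T cell markers Thy1 rose and Cd8a fell. The sums were 612 to 1352 in WT and 1590 to 2044 in BCS, mostly from Thy1 (401 to 898 and 1438 to 1917), while the other 7 had a lower BCS mean, the median difference was -0.44 and Gata3 was at or below the array median. Of 8 erythroid and megakaryocyte markers Car2 rose. The sums were 1558 to 6772 in WT and 5900 to 7445 in BCS, mostly from Car2 in BCS (5635 to 7212), while 6 of the 8 had a lower BCS mean, the median difference was -0.58 and Hba-a1 was at or below the median. The genes of the sort gate were above the array median on all arrays, with Kit and Cd93 at log2 differences of -0.01 and 0.29 and Ptprc and Flt3 lower by limma at -0.40 and -1.22. Pou2af1, read by a mouse probe set, was at 6278, 7250 and 3401 in WT and 10784, 10858 and 10323 in BCS (log2 difference 0.99, limma adjusted p = 0.0436). Spearman correlation between arrays was 0.968 to 0.976 within a genotype and 0.961 to 0.971 between genotypes, and all arrays had the same median intensity.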

How the data were processed

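RNA of sorted EPLMs from 3 WT and 3 BCS mice was hybridized to Affymetrix mouse expression arrays. The authors normalized the arrays with GCRMA (version not given in the sources used here), and they deposited these intensities unlogged, with 45037 probe sets and 64 control features on each array. The methods describe a 2-cycle labeling kit and the labels a 1-cycle protocol. Large preB columns were not used: their mean log2 levels correlated with those of EPLMs at r = 0.0944 over probe sets but 0.978 over control features.

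Probe sets were named from the platform annotation: 34945 had 1 symbol, 932 several and 9160 none, and each gene was read by its brightest single-symbol probe set over the 6 EPLM arrays. Log2(intensity + 1) was fitted for all probe sets with limma 3.58.1 in R 4.3.3 (eBayes with trend), without a replicate block, and p-values were adjusted by Benjamini-Hochberg. The procedure was tested on simulated data. The antiviral genes and all lists were chosen with earlier results of these data known. Genes past the threshold are named with values of each mouse, as are those differing at least 2-fold and the 5 brightest that did not pass, and of other lists at most the 6 largest called differences. Each mouse is 1 replicate, and the number of arrays limits the precision. Leaving out each mouse, a dim filter, other normalizations, offsets and probe set rules, a replicate block and the methods' t-test were the alternatives.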

Additional observations from a re-analysis of the deposited data

How the results depend on the processing

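Against 1 antiviral gene higher and 5 lower, the methods' t-test on log2 values with Benjamini-Hochberg adjustment gave 0 and 0, with 9 genes at an unadjusted p under 0.05, and 1 gene, Samhd1, met the methods' own threshold. Limma without the trend gave 2 lower (Samhd1 and Sp100), a filter on dim probe sets 2 higher (Oas1a was added), and a threshold of 0.01 gave 0 higher and 1 lower. Leaving out 1 mouse gave 0 to 2 higher and 1 to 4 lower. The balance turned to 2 higher and 1 lower without WT mouse 2, and was 2 and 2 without BCS mouse 2. An offset of 16, array weights and robust eBayes gave 1 higher and 5 lower. Quantile normalization and centring gave the same counts, but the deposited arrays already shared nearly the same median, upper quartile and maximum intensity. Those settings could therefore change little and are no test of the result. Taking the most variable probe set turned Trim25 to 0.39 (limma adjusted p = 0.621). Of the pathway genes, 14 were lower with the dim filter, against 9, and 5 to 12 when 1 mouse was left out. Of the plasmacytoid dendritic cell markers, 12 to 14 were lower when 1 mouse was left out, against 14, and 0 to 1 rose. The cause of these changes was not tested.

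Same-numbered mice were not treated as pairs in the main fit. Their deviations from the genotype means correlated at 0.0056, 0.0962 and 0.1045, and those of differently numbered mice at -0.2178 to 0.1046. With 3 mice per genotype, such values cannot settle whether the mice were paired. With the replicate block, 3 antiviral genes were lower (Mx1, Samhd1 and Trim30a) and 1 higher. Intensities near the array median, such as those of Oas3, carry little signal over background.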
